A study of Mus musculus with 12 samples.

Results

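The genes described here encode cell-surface receptors for 3 growth factor families: Egfr, Erbb2 and Erbb3 for EGF and the neuregulins, Fgfr1, Fgfr2 and Fgfr3 for fibroblast growth factors (FGFs), and Met for hepatocyte growth factor (HGF). They were taken by name, and each of the 7 symbols matched a single gene among the 53932 gene identifiers of every table. All are receptor tyrosine kinases, which pair up when a ligand binds, phosphorylate each other and pass the signal to the RAS-ERK and PI3K-AKT pathways. ERBB2 has no known ligand of its own and works as a partner, ERBB3 has a weak kinase and needs a partner, and FGF receptors bind FGFs together with heparan sulfate. In the developing cortex FGF and EGF drive the division of neural progenitors, which is why both are added to neurosphere cultures, FGFR3 is a marker of radial glia and astrocytes, and EGFR amplification is common in human glioblastoma.

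Total RNA from mouse cultures (strain C57BL/6) was sequenced as 12 bulk libraries, 3 in each of 4 groups. The media given for 3 of these groups (NSC, Astrocytes and MIM-Astrocytes) differed in EGF and FGF2. NSC are neural stem cells from cortex of embryonic day 14.5, grown as neurospheres with EGF and FGF2 at 20 ng/mL each and without serum. Astrocytes, labelled cortex and embryonic day 14.5, were grown in a medium with 10% fetal serum to which neither factor is said to be added. They came either from postnatal cortex sorted for GLAST or from neurospheres made to differentiate, and the labels do not say which. MIM-Astrocytes are such cultures moved, at high confluence, to MIM, a serum-free medium with FGF2 at 20 ng/mL and up to 6 metabolites (the amino acids cysteine, glycine, methionine and threonine, the polyamine putrescine and the methyl donor S-adenosylmethionine). No EGF is listed for it, the combination used here is not given, and cells were collected by the fifth day at the latest. Control cultures of the same batch kept their own medium. Glioblastoma is a culture labelled Cerebella and E18.5, and its making, genotype and medium are not stated. Nothing says that a group's 3 libraries are separate cultures or mice, so p-values measure the spread between these libraries only, which may be technical. Medium, cell source and cell state change together between groups, so their parts in a difference cannot be told apart.

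Values are FPKM, fragment counts scaled by transcript length and library depth, which allow levels of different genes to be set side by side. Differences are of log2(FPKM + 1), from limma over 16982 genes that reached 1 FPKM in at least 3 libraries, where "called" means an adjusted p (Benjamini-Hochberg) below 0.05. The added 1 understates the change of genes at low levels. Depth read from the deposited intervals was an estimated 10083801 to 14746736 fragments per library. The 9 astrocyte markers of the list split between Astrocytes and MIM-Astrocytes. Gfap, a glial filament, went from 258 ± 16.1 to 7.35 ± 0.207 FPKM (SD, n = 3) and Aqp4, a water channel, from 397 ± 27.7 to 35.5 ± 1.20. Glul rose from 286 ± 30.7 to 971 ± 92.9 FPKM and Slc1a3 from 396 ± 32.4 to 860 ± 137. Of the 9, 4 were called higher in MIM-Astrocytes and 3 lower, beside 34.8% and 26.6% of all tested genes, and 2 were not called. The 9 summed to 1622 to 1859 FPKM in Astrocytes, 2058 to 2479.8 in MIM-Astrocytes and 925 to 1071 in NSC. In Glioblastoma they summed to 497 to 520.1 FPKM, with 8 of 9 at 1 FPKM or more, led by the glutamate transporter Slc1a3 (399.6 ± 11.2), and with Aqp4 at 0.125 ± 0.0285. The 10 progenitor markers, among them Egfr itself, summed to 4280.0 to 4659.8 FPKM in MIM-Astrocytes, 2892 to 3406 in NSC, 951 to 1094 in Glioblastoma and 900.5 to 1109.8 in Astrocytes. They were higher in the groups where Egfr and Fgfr3 were higher, and their part was not tested. No microglial marker of 7 reached a mean of 1 FPKM in any group, and the 7 summed to 0.457 to 1.29 FPKM. The 7 neuron markers summed to 104 to 110 FPKM in Astrocytes and 169 to 190 in MIM-Astrocytes. In NSC they summed to 275 to 303 FPKM and in Glioblastoma to 202 to 214. Map2 was the highest of them in every group, and the part of neurons in the differences was not tested. Markers of meningeal fibroblasts summed to 155 to 185 FPKM in Astrocytes and to 0.294 to 3.74 elsewhere, nearly all of it Ogn (164 ± 16.4 in Astrocytes), and the part of such cells in the differences was not tested. Ependymal markers stepped down in the order of Fgfr2, from 39.1 to 48.5 FPKM in Astrocytes to 12.1 to 14.1 in MIM-Astrocytes, 2.42 to 2.84 in NSC and 0.609 to 0.776 in Glioblastoma, led by Foxj1, and their part was not tested either. Oligodendrocyte lineage markers summed to 62.2 to 72.6 FPKM in Astrocytes and to 335 to 513 in the other groups, led by Olig1 in the latter and with the myelin gene Mog at a mean of 0.415 or less in every group, and their part was likewise not tested. In bulk RNA, fewer cells that express a gene and less RNA of it per cell cannot be told apart.

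Sequence just before the annotated start is shown for the 2 receptor genes that rose in MIM-Astrocytes against Astrocytes (Egfr, Fgfr3) and for Met, whose fall was the largest by fold. The letters are from RefSeq on GRCm38.p6, plus strand, 5′ to 3′. Capitals mark GGGCGG, the core of a GC box, on either strand. In the shorter Met sequence, which lies just inside the gene, they mark TGANTCA, the core of an AP-1 element.
Egfr, chr11:16751953-16752202: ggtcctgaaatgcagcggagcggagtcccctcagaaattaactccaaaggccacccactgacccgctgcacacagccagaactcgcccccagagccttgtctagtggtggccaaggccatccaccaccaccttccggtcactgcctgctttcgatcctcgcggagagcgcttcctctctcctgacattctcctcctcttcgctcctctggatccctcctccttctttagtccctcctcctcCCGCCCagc
Fgfr3, chr5:33721474-33721673: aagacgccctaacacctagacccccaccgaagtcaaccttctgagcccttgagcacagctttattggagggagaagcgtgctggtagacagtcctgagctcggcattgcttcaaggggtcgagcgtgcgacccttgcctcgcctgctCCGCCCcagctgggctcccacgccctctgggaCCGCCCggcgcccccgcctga
Met, chr6:17463707-17463799: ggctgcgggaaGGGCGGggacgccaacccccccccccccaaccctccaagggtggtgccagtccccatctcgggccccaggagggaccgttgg
Met, chr6:17463892-17463920: tgttgcccggcTGAGTCAcgggccgggca
The full RefSeq promoters of 300 bases were searched on both strands for the GC box core GGGCGG, the AP-1 core TGANTCA, the TATA box core TATAAA and the E-box CACGTG. The second and the last read the same on both strands, and no motif contains another. GGGCGG stood once in the Egfr promoter, 4 times in the first Fgfr3 promoter and 3 times in that of Met, and 35.7% of 32851 mouse promoters held it. TGANTCA stood in the Met promoter alone among those of Egfr, Erbb2, Fgfr2, Fgfr3 and Met, against 7.81% of all promoters. CACGTG, held by 7.15% of promoters, was found for Met and Fgfr2. TATAAA, held by 13.6%, was found in none of the 5. GC content was 62.3% for Egfr, 66.0% for Erbb2, 43.7% for Fgfr2, 69.7% for the first Fgfr3 promoter and 75.7% for Met. The Fgfr2 promoter, at 130266759 to 130267058 of chromosome 7, lies inside the annotated span of this minus-strand gene. It is far from the start of that span, at 133123350. A match is a run of letters and not evidence that a factor binds there.

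Egfr (ENSMUSG00000020122.16, GRCm38 chromosome 11, 16752203 to 16918158, plus strand) encodes the receptor of EGF, TGF-alpha, HB-EGF and amphiregulin. It was high in NSC and MIM-Astrocytes and low in Astrocytes and Glioblastoma. The 3 Astrocytes libraries stood at 19.7, 20.4 and 19.7 FPKM and the 3 MIM-Astrocytes libraries at 138, 150.0 and 166 FPKM. NSC stood at 167, 173 and 171 FPKM, and Glioblastoma at 12, 13.5 and 12.9 FPKM. No 2 of the 4 groups overlapped, and the gap lay between the pair at 138 or more and the pair at 20.4 or less. Egfr rose 7.60-fold in MIM-Astrocytes against Astrocytes (151 ± 13.9 against 19.9 ± 0.421 FPKM, SD, n = 3, log2 difference 2.86, SE 0.07, limma adjusted p = 1.76e-10). NSC stood 8.55-fold above Astrocytes (log2 3.03, SE 0.07, limma adjusted p = 8.5e-11). Glioblastoma was lower than Astrocytes by a smaller step (log2 -0.60, SE 0.07, limma adjusted p = 1.29e-05) and lower than NSC by a large step (log2 -3.64, limma adjusted p = 4.25e-11).

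MIM-Astrocytes reached 0.888 of the mean Egfr level of NSC, in a medium for which no EGF is listed. That difference was not called (log2 -0.17, 95% interval -0.32 to -0.02, limma adjusted p = 0.0512), although the highest MIM-Astrocytes library lay just below the lowest NSC library. It was called under median-of-ratios scaling (adjusted p = 0.0213), when mitochondrial genes and small RNAs were removed from the total (0.0173), and without MIM-Astrocytes replicate 3, the highest of its group (log2 -0.24, adjusted p = 0.0103). An antisense gene, Egfros, lies over Egfr on the other strand at 4.79 FPKM in NSC, 4.28 in MIM-Astrocytes, 0.485 in Astrocytes and 0.243 in Glioblastoma. The strandedness of the libraries is not given, so reads of the pair cannot be told apart, and Egfros stood far below Egfr in every group.

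Erbb2 (ENSMUSG00000062312.5, chromosome 11, 98412470 to 98437716, plus strand), the ligandless partner receptor, was expressed at a few FPKM in the 3 groups other than Glioblastoma. Astrocytes stood at 3.83, 5.10 and 4.99 FPKM, MIM-Astrocytes at 3.23, 4.36 and 3.59 FPKM, and NSC at 4.68, 5.03 and 4.90 FPKM. Glioblastoma stood at 0.543, 0.511 and 0.497 FPKM. The first 2 groups overlapped, as did Astrocytes and NSC, and all 3 Glioblastoma libraries lay far below every other library. Glioblastoma was lower than Astrocytes (log2 -1.89, SE 0.10), than NSC (log2 -1.95) and than MIM-Astrocytes (log2 -1.63), with limma adjusted p of 3.68e-08, 5.65e-08 and 2.16e-07.

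Among the other 3 groups Erbb2 differed by small amounts that rest on single libraries. MIM-Astrocytes against Astrocytes gave log2 -0.25 (95% interval -0.48 to -0.02, limma adjusted p = 0.0535). This was called under each of the 4 other scalings, with log2 -0.54 (adjusted p = 0.00286) at a common total, and without MIM-Astrocytes replicate 2 (adjusted p = 0.0134) or Astrocytes replicate 1 (adjusted p = 0.00757). NSC against Astrocytes was not called (log2 0.06, 95% interval -0.16 to 0.29, limma adjusted p = 0.588), turned to -0.27 at a common total and to -0.04 without Astrocytes replicate 1, and was called with array weights (log2 0.27, adjusted p = 0.00618). MIM-Astrocytes were lower than NSC (log2 -0.32, limma adjusted p = 0.0227), a call lost at a common total (adjusted p = 0.0904) and in 4 of 6 fits that left out a library. Those were MIM-Astrocytes replicate 1 (0.0837) and replicate 3 (0.0642) and NSC replicate 2 (0.0652) and replicate 3 (0.0548). Mien1, a gene on the other strand that overlaps Erbb2, stood at 38.1, 28.3, 19.2 and 33.7 FPKM in Astrocytes, MIM-Astrocytes, NSC and Glioblastoma, above Erbb2 in each, and its share in the Erbb2 values was not tested.

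Erbb3 (ENSMUSG00000018166.8, chromosome 10, 128567523 to 128589652, minus strand), the neuregulin receptor that signals through ERBB2, stayed below 1 FPKM in all 12 libraries and was not tested. Astrocytes stood at 0.221, 0.184 and 0.184 FPKM, MIM-Astrocytes at 0.0310, 0.0427 and 0.0453 FPKM. NSC stood at 0.0679, 0.0534 and 0.0617 FPKM, and Glioblastoma at 0.109, 0.0898 and 0.0708 FPKM. The Astrocytes libraries were the highest and the MIM-Astrocytes libraries the lowest, with no overlap between groups, at levels where the deposited intervals reached 23.6% to 60.3% of the value on each side.

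**Figure D1:**
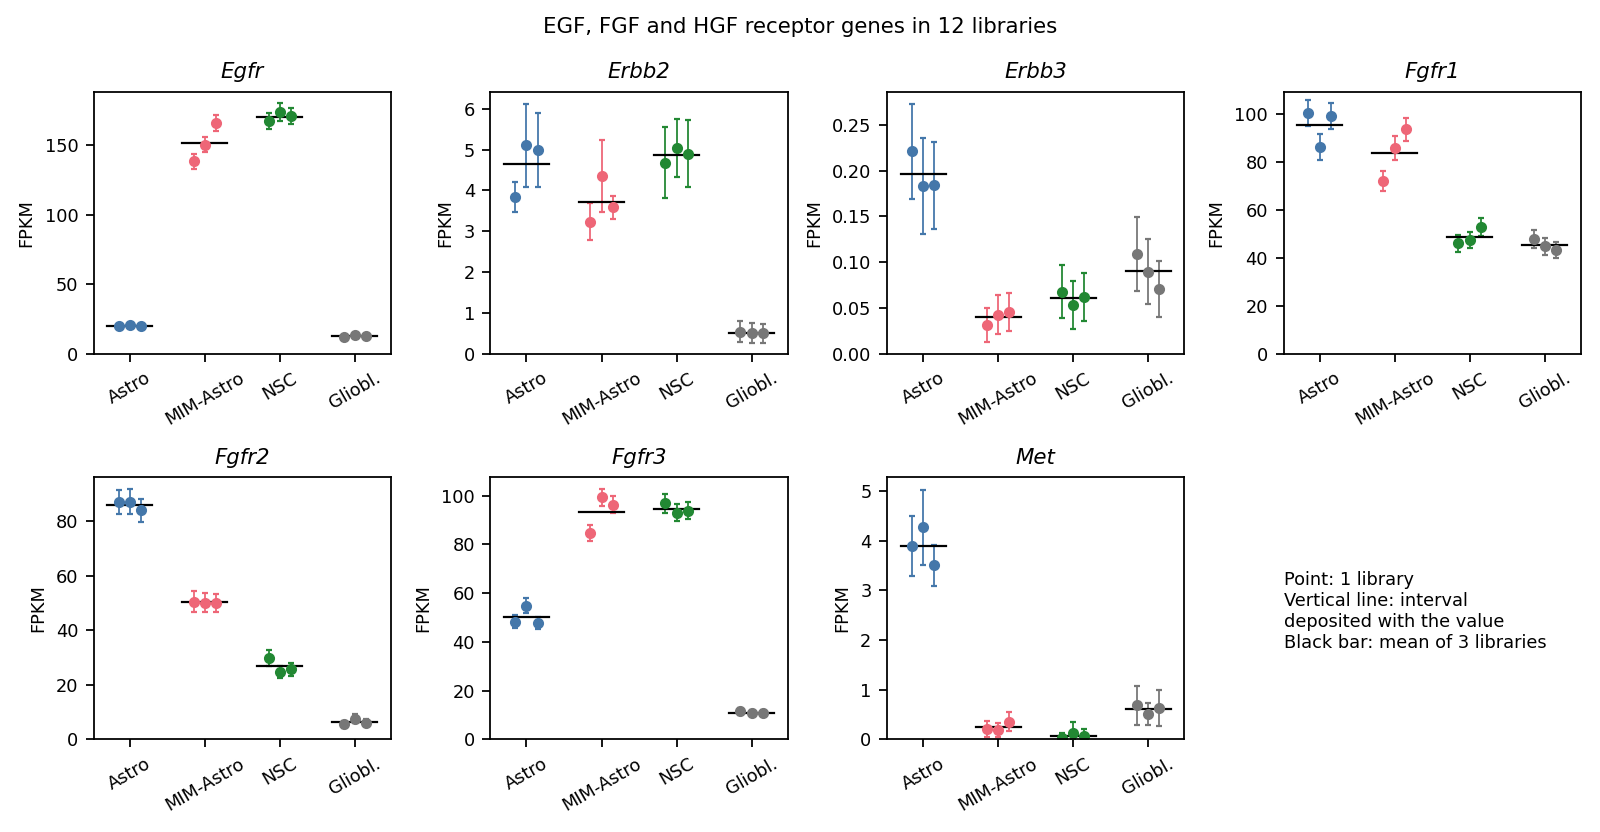
Level of each receptor gene in FPKM (vertical axis, linear, a separate scale per panel) in the 12 libraries, by group. Points are libraries with the interval deposited for each value and black bars are group means. Egfr stands at 138 FPKM or more in MIM-Astrocytes and NSC and at 20.4 or less in Astrocytes and Glioblastoma, while Fgfr2 steps down from Astrocytes to Glioblastoma.

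Fgfr1 and Fgfr2 shared the order Astrocytes, MIM-Astrocytes, NSC and Glioblastoma from high to low, while Fgfr3 was highest in NSC and MIM-Astrocytes. Fgfr1 (ENSMUSG00000031565.18, chromosome 8, 25513654 to 25575718, plus strand), the FGF receptor found most broadly in neural progenitors, varied least of the 7, with a ratio of 2.11 between its highest and lowest group means. Astrocytes stood at 101, 86.1 and 99.2 FPKM, MIM-Astrocytes at 72.0, 85.8 and 93.6 FPKM. NSC stood at 46.1, 47.4 and 52.7 FPKM, and Glioblastoma at 47.7, 44.8 and 43.2 FPKM. The libraries fell into 2 levels, with Astrocytes and MIM-Astrocytes overlapping at the upper and NSC and Glioblastoma overlapping at the lower. NSC were lower than Astrocytes (log2 -0.95, SE 0.10, limma adjusted p = 1.12e-05) and MIM-Astrocytes were 1.72-fold above NSC (log2 0.76, limma adjusted p = 0.000113).

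Within each level Fgfr1 did not pass the test. MIM-Astrocytes against Astrocytes gave log2 -0.19 (95% interval -0.41 to 0.04, limma adjusted p = 0.135). It was called as lower under median-of-ratios scaling (log2 -0.27, adjusted p = 0.0428), quantile normalization (log2 -0.45, 0.0189), a common total (log2 -0.52, 0.00626), array weights (0.0195) and without MIM-Astrocytes replicate 3 (log2 -0.27, 0.0483). Glioblastoma against NSC gave log2 -0.10 (95% interval -0.33 to 0.12, limma adjusted p = 0.382) and was called as lower under median-of-ratios scaling (log2 -0.26, 0.0438), quantile normalization (log2 -0.46, 0.0163) and without mitochondrial genes and small RNAs (log2 -0.41, 0.0212). An antisense gene over Fgfr1, Gm16159, stood at 1.37 to 2.01 FPKM on average in the 4 groups, and its reads cannot be told apart from those of Fgfr1. Glioblastoma was lower than Astrocytes (log2 -1.06, limma adjusted p = 3.54e-06) and than MIM-Astrocytes (log2 -0.87, limma adjusted p = 2.45e-05).

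Fgfr2 (ENSMUSG00000030849.18, chromosome 7, 130162451 to 133123350, minus strand), which in brain is found in astrocytes and radial glia, fell in steps over the 4 groups. Astrocytes stood at 86.9, 87.1 and 83.9 FPKM, MIM-Astrocytes at 50.4, 50.1 and 50.0 FPKM. NSC stood at 29.9, 24.6 and 25.7 FPKM, and Glioblastoma at 5.48, 7.58 and 6.06 FPKM. No groups overlapped, and each step down was called: MIM-Astrocytes below Astrocytes (log2 -0.77, SE 0.10, limma adjusted p = 6.89e-05), MIM-Astrocytes above NSC (log2 0.89, limma adjusted p = 3.23e-05) and Glioblastoma below NSC (log2 -1.92, limma adjusted p = 4.97e-08). The annotated span of Fgfr2 is 2960.9 kb, and 69 other genes overlap it, 33 of them on the other strand. Of the 69, 27 stood at 1 FPKM or more in some group, and the share of these genes in the Fgfr2 values was not tested.

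Fgfr3 (ENSMUSG00000054252.18, chromosome 5, 33721674 to 33737068, plus strand), the FGF receptor that marks radial glia and astrocytes, went the opposite way from Fgfr2 between Astrocytes and both serum-free groups. Astrocytes stood at 48.3, 54.8 and 47.9 FPKM, MIM-Astrocytes at 84.6, 99.3 and 96.3 FPKM. NSC stood at 96.8, 93.1 and 93.8 FPKM, and Glioblastoma at 11.4, 10.9 and 10.6 FPKM. MIM-Astrocytes and NSC overlapped at the top, Astrocytes lay apart below them, and Glioblastoma lay apart at the bottom. Fgfr3 rose 1.86-fold in MIM-Astrocytes against Astrocytes (log2 0.88, SE 0.07, limma adjusted p = 2.08e-06) and was higher in NSC than in Astrocytes (log2 0.90, limma adjusted p = 1.2e-06). MIM-Astrocytes against NSC was not called (log2 -0.02, 95% interval -0.18 to 0.14, limma adjusted p = 0.825), with the sign turned at a common total (0.04), with array weights (0.01) and without MIM-Astrocytes replicate 1 (0.05). Glioblastoma was lower than Astrocytes (log2 -2.10, limma adjusted p = 1e-09), than NSC (log2 -3.00) and than MIM-Astrocytes (log2 -2.98).

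Met (ENSMUSG00000009376.15, chromosome 6, 17463800 to 17573980, plus strand) encodes the receptor of HGF, which promotes motility and growth. It reached 1 FPKM in the 3 Astrocytes libraries alone, so it entered the test through the group where it was high and had to differ there. Astrocytes stood at 3.89, 4.27 and 3.51 FPKM, MIM-Astrocytes at 0.211, 0.188 and 0.349 FPKM. NSC stood at 0.0251, 0.125 and 0.0660 FPKM, and Glioblastoma at 0.683, 0.513 and 0.624 FPKM. Every Astrocytes library was above 3 FPKM, every other library was below 1, and no groups overlapped. The mean in Astrocytes was 15.6-fold that in MIM-Astrocytes and 6.41-fold that in Glioblastoma. On the log2(FPKM + 1) scale, which compresses such low values, these were differences of -1.97 and -1.60 (SE 0.08, limma adjusted p = 7.52e-09 and 1.7e-08). NSC gave -2.19 (limma adjusted p = 2.38e-09), with deposited intervals that reach 0 in all 3 NSC libraries.

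Below 1 FPKM, Met was higher in Glioblastoma than in NSC (log2 0.58, limma adjusted p = 7.43e-05) and than in MIM-Astrocytes (log2 0.36, limma adjusted p = 0.00198). MIM-Astrocytes were called above NSC (log2 0.22, limma adjusted p = 0.0371), a call that was lost with no filter on low values (0.0731), under quantile normalization (0.0616) and in 4 of 6 fits without a library. These were MIM-Astrocytes replicate 1 (0.0526) and replicate 3 (0.136) and NSC replicate 1 (0.114) and replicate 3 (0.0801).

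Counted over the receptors, 4 of the 6 tested were called between MIM-Astrocytes and Astrocytes, Egfr and Fgfr3 higher and Fgfr2 and Met lower, where 61.4% of all tested genes were called (34.8% higher, 26.6% lower). Between NSC and Astrocytes 5 of 6 were called, Egfr and Fgfr3 higher and Fgfr1, Fgfr2 and Met lower, against 71.2% of all genes (37.7% higher, 33.4% lower). Met is in both counts although it entered the test through Astrocytes and had to differ there. Calls were thus common among all genes in each comparison, and the counts of receptors stand near that background. Between MIM-Astrocytes and NSC 4 of 6 were called, Fgfr1, Fgfr2 and Met higher in MIM-Astrocytes and Erbb2 lower, against 55.9% (31% higher, 24.9% lower). The count fell to 2 without MIM-Astrocytes replicate 1 and without NSC replicate 3. These 3 comparisons share groups with one another, so their values are set side by side and not counted as independent.

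All 6 tested receptors were lower in Glioblastoma than in Astrocytes, where 78.3% of all genes were called, 31.3% lower and 47% higher. Met, one of the 6, entered the test through Astrocytes and had to be lower in this comparison, and it is part of the median given below. Against MIM-Astrocytes 5 of 6 were lower and Met was higher, with 28.3% of all genes called lower, 41.5% higher and 69.8% either way. Against NSC 4 of 6 were lower, Met was higher and Fgfr1 was not called, with 25.1% of all genes called lower, 44.8% higher and 69.9% either way. The median log2 difference over the 6 tested receptors was -1.75 against Astrocytes, -2.22 against MIM-Astrocytes and -1.93 against NSC, beside medians over all tested genes of 0.23, 0.13 and 0.19. Rescaling every library to a common total of FPKM moved the medians over all genes to -0.29, -0.09 and 0.01, and in MIM-Astrocytes and NSC against Astrocytes from 0.09 and 0.07 to -0.18 and -0.25. With it the share of calls that were higher went from 60% to 35.7% in Glioblastoma against Astrocytes, from 59.5% to 43.5% against MIM-Astrocytes and from 64.1% to 52.1% against NSC. In MIM-Astrocytes and NSC against Astrocytes that share went from 56.7% to 31.4% and from 53.0% to 31.7%. Groups that did not overlap were also common: of all tested genes this held for 62.3% between MIM-Astrocytes and NSC. Against Astrocytes it held for 64.5% in MIM-Astrocytes and 73% in NSC. For Glioblastoma it held for 79.9% against Astrocytes, 74.5% against MIM-Astrocytes and 75% against NSC. Removing mitochondrial genes and small RNAs put the share of calls that were higher in Glioblastoma at 47.1% against Astrocytes, 46.9% against MIM-Astrocytes and 47.4% against NSC.

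**Figure D2:**
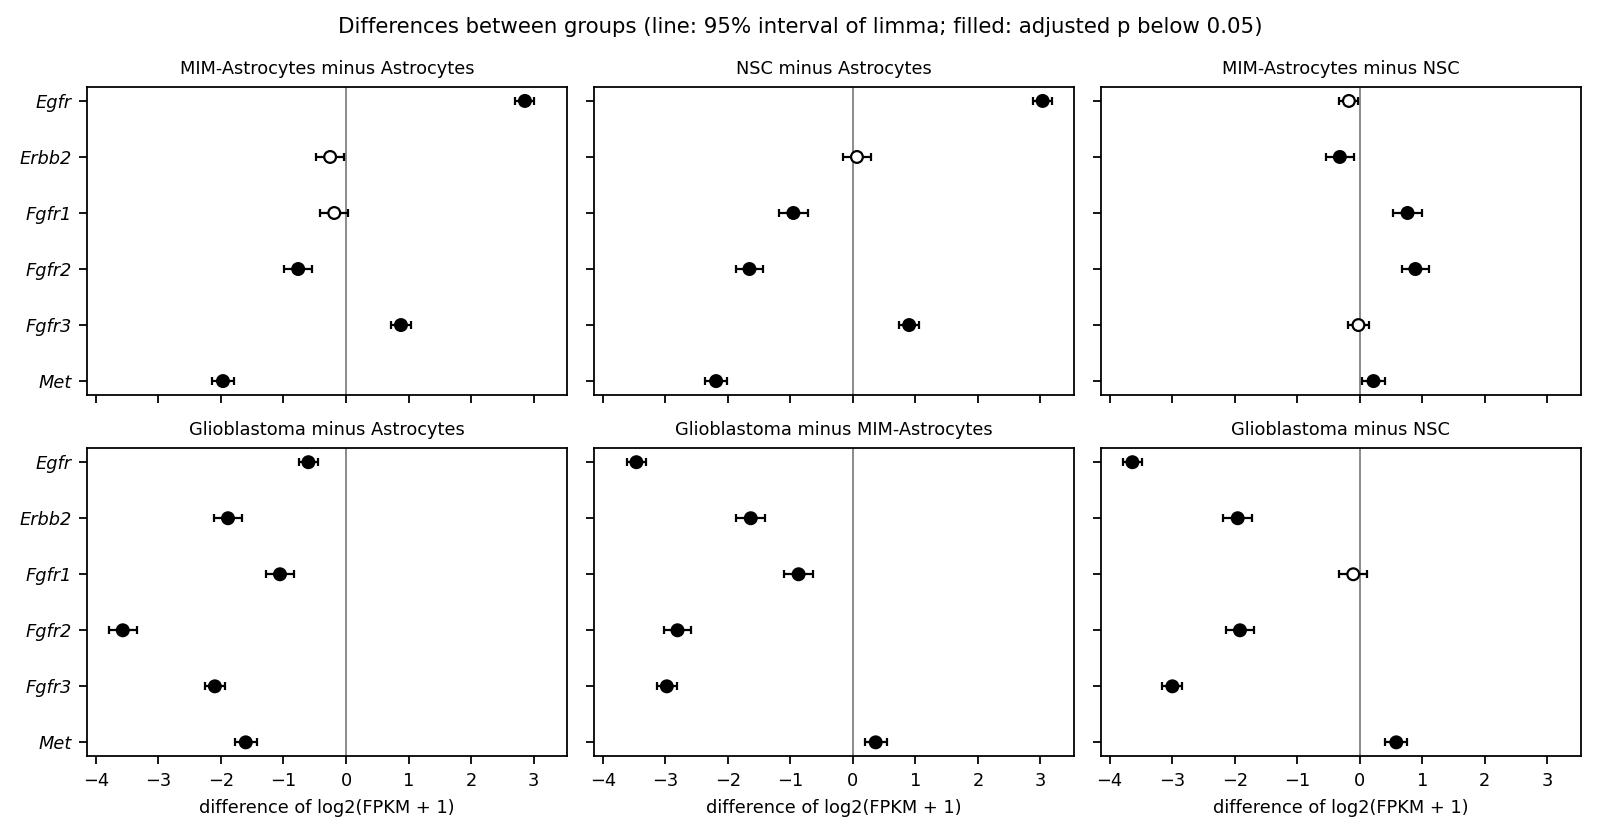
Difference of log2(FPKM + 1) (horizontal axis) for the 6 tested receptor genes in each of 6 comparisons, with the 95% interval of limma. Filled points have an adjusted p below 0.05. In the 3 comparisons of Glioblastoma most points lie left of 0, and in the comparisons with Astrocytes Egfr and Fgfr3 of MIM-Astrocytes and NSC lie right of 0 (2.86, 0.88, 3.03 and 0.90).

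The share of each FGF receptor in their sum differed between groups. The 3 FGF receptors summed to 232 ± 3.89 FPKM in Astrocytes and 227 ± 17.8 in MIM-Astrocytes (SD, n = 3), while 170.0 ± 4.31 was measured in NSC and 62.6 ± 2.45 in Glioblastoma. Fgfr3 made up 55.6% ± 1.01 in NSC, 41.1% ± 1.07 in MIM-Astrocytes, 21.8% ± 1.98 in Astrocytes and 17.5% ± 0.328 in Glioblastoma. Fgfr2 made up 10.2% ± 1.75 in Glioblastoma, 15.7% ± 1.37 in NSC, 22.2% ± 1.90 in MIM-Astrocytes and 37.1% ± 0.968 in Astrocytes. Fgfr1 had the largest mean share in Glioblastoma, at 72.3% ± 1.49 of the sum, and also in Astrocytes, at 41.1% ± 2.91. It made up 36.8% ± 2.12 in MIM-Astrocytes and 28.7% ± 1.97 in NSC, below Fgfr3 in both. The ratio of Fgfr3 to Fgfr2 within a library is not altered by multiplying that library by a constant factor. It ran from 0.556 to 0.629 in Astrocytes and from 1.68 to 1.98 in MIM-Astrocytes. It ran from 3.24 to 3.78 in NSC and from 1.43 to 2.08 in Glioblastoma, so that MIM-Astrocytes and Glioblastoma overlapped between the other groups.

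The balance of Egfr and Fgfr1 differed as well. All 7 genes summed to 383 ± 31.2 FPKM in MIM-Astrocytes, 345 ± 2.24 in NSC, 260.2 ± 2.80 in Astrocytes and 76.6 ± 2.25 in Glioblastoma. The share of Egfr was 49.3% ± 1.02 in NSC and 39.5% ± 0.994 in MIM-Astrocytes, against 16.7% ± 1.16 in Glioblastoma and 7.65% ± 0.227 in Astrocytes. The ratio of Egfr to Fgfr1 within a library was 0.196 to 0.237 in Astrocytes and 0.251 to 0.30 in Glioblastoma, so Fgfr1 led there. In MIM-Astrocytes it was 1.75 to 1.92 and in NSC 3.24 to 3.66, so Egfr led. No 2 groups overlapped in this ratio.

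**Figure D3:**
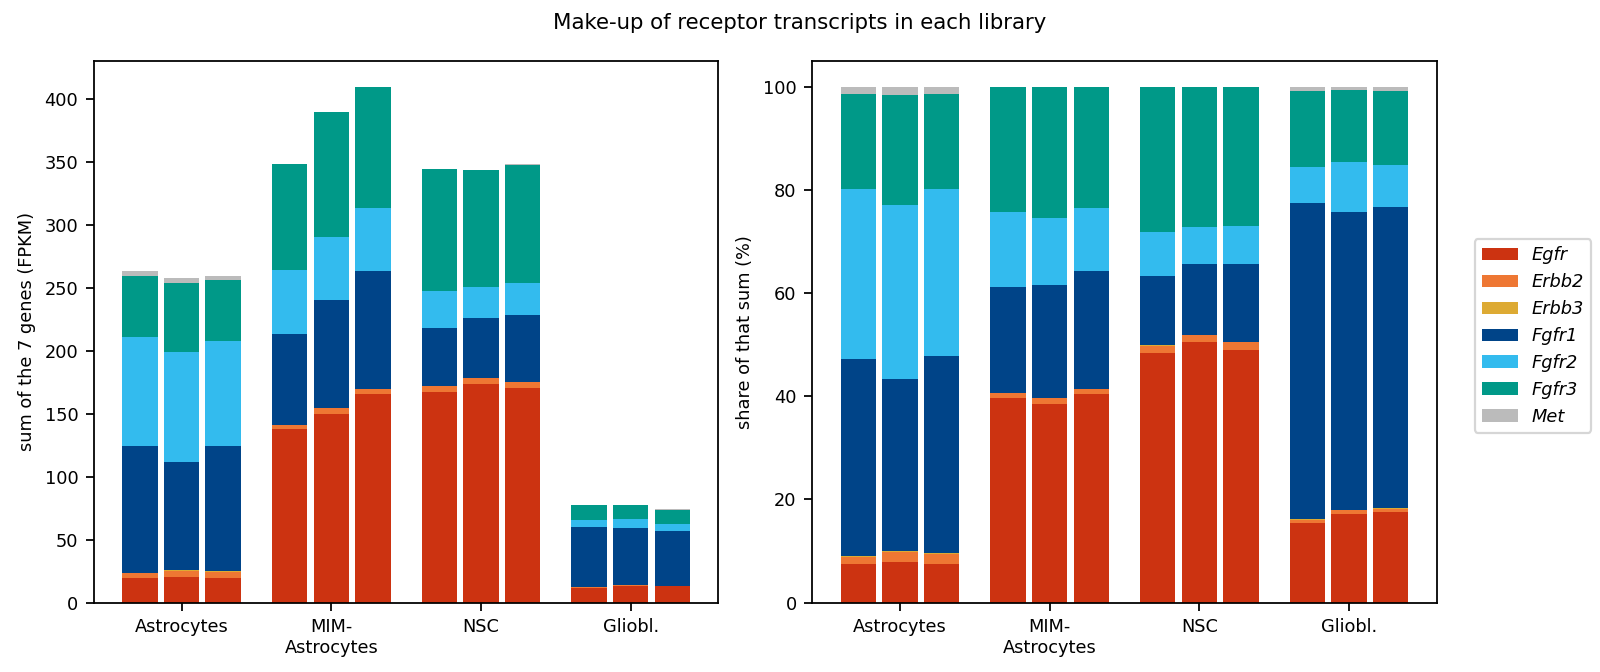
Sum of the 7 receptor genes in FPKM (left, stacked bars) and the share of each gene in that sum in percent (right), for each of the 12 libraries. The sum is lowest in Glioblastoma (76.6 FPKM on average), where Fgfr1 takes the largest share, and Egfr takes 39.5% in MIM-Astrocytes and 49.3% in NSC.

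Other receptors of the same families were mostly at low levels. Of 6 further receptors and co-receptors, Fgfr4, the klotho co-receptors Kl and Klb and the MET relative Mst1r were below 1 FPKM in every group and not tested. Erbb4, the neuregulin receptor with its own kinase, stood at 30.1 ± 2.31 FPKM in NSC, 15.5 ± 0.753 in MIM-Astrocytes, 10.1 ± 0.596 in Astrocytes and 4.96 ± 0.386 in Glioblastoma. It was thus higher in MIM-Astrocytes than in Astrocytes (log2 0.57, limma adjusted p = 5.51e-05), a call lost at a common total (0.0560), and it was lower in MIM-Astrocytes than in NSC (log2 -0.91, limma adjusted p = 2.73e-06). The ratio of Egfr to Erbb4 within a library was 8.86 to 10.2 in MIM-Astrocytes, above the 5.21 to 5.98 of NSC and the 1.83 to 2.06 of Astrocytes.

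Fgfrl1, an FGF receptor without a kinase domain, was the member of this group that was higher in Glioblastoma. It stood at 106 ± 2.51 FPKM there, 59.9 ± 3.05 in Astrocytes, 50.8 ± 5.86 in MIM-Astrocytes and 15.6 ± 1.44 in NSC. Glioblastoma was above NSC (log2 2.70, limma adjusted p = 2.08e-09) and above Astrocytes (log2 0.82, limma adjusted p = 1.08e-05), the second a call lost at a common total (log2 0.21, 0.0641). Fgfr1 exceeded Fgfrl1 1.36- to 1.74-fold in Astrocytes libraries and 3.01- to 3.29-fold in NSC libraries, and was 0.400 to 0.445 of it in Glioblastoma. The step of Fgfrl1 from Astrocytes to MIM-Astrocytes (log2 -0.24, limma adjusted p = 0.0419) was lost without MIM-Astrocytes replicate 1 (log2 -0.14, 0.144), Astrocytes replicate 1 (0.0822) or Astrocytes replicate 2 (0.120).

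Several ligand genes of the 3 families were highest in Astrocytes. Of 11 EGF family ligands 6 were tested. Between MIM-Astrocytes and Astrocytes 2 of these rose and 3 fell, beside 34.8% and 26.6% of all tested genes. Hbegf, which encodes HB-EGF, a ligand of EGFR and ERBB4, fell from 61.1 ± 6.38 to 5.97 ± 0.120 FPKM (log2 -3.15, limma adjusted p = 4.45e-10), and stood at 1.57 ± 0.177 in NSC and 5.28 ± 0.509 in Glioblastoma. The neuregulins Nrg1 (5.59 ± 0.461 to 0.708 ± 0.0214 FPKM, log2 -1.95) and Nrg2 (7.97 ± 0.573 to 3.33 ± 0.263, log2 -1.05) fell as well. Tgfa, which encodes the EGFR ligand TGF-alpha, rose from 0.587 ± 0.0747 to 4.37 ± 0.478 FPKM (log2 1.76, limma adjusted p = 9.15e-09) and stood at 3.20 ± 0.0469 in NSC. Nrg4 rose slightly (0.676 to 0.978 FPKM, log2 0.24), a call lost at a common total (adjusted p = 0.335). Areg, which encodes amphiregulin, stood at 3.31 to 4.25 FPKM in Glioblastoma and at 0.0848 or less in every other library, and it entered the test through Glioblastoma. Egf itself was at 0.762 ± 0.0826 FPKM in Astrocytes and, like Btc, Ereg, Epgn and Nrg3, was not tested.

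Of 18 FGF genes 3 were tested, and Fgf1 and Fgf2 fell in MIM-Astrocytes against Astrocytes, where 26.6% of all tested genes fell. Fgf1, a ligand of all FGF receptors, went from 63.2 ± 0.883 to 26.0 ± 1.88 FPKM (log2 -1.25, limma adjusted p = 4.93e-06), and stood at 2.57 ± 0.631 in NSC and 27.2 ± 1.60 in Glioblastoma. Fgf2, the factor added to the media of MIM-Astrocytes and NSC, went from 18.3 ± 3.72 to 3.74 ± 1.42 FPKM (log2 -2.06, limma adjusted p = 0.000331) and stood at 1.41 ± 1.12 in NSC and 1.62 ± 0.532 in Glioblastoma. Fgf21, an FGF that acts with a klotho co-receptor, stood at 3.33 to 3.57 FPKM in Glioblastoma and was listed at 0 in 8 of the other 9 libraries. Its co-receptor Klb was at 0.108 ± 0.0355 FPKM in Glioblastoma.

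Hgf, the MET ligand, stood at 2.19 to 2.22 FPKM in Astrocytes, at 0.0444 to 0.0861 in MIM-Astrocytes, at 0.0283 to 0.0513 in Glioblastoma, and was listed at 0 in the 3 NSC libraries. As with Met, only Astrocytes reached 1 FPKM and carried the gene into the test (log2 -1.59 in MIM-Astrocytes against Astrocytes, limma adjusted p = 6.54e-10). Of the 4 tested genes of the HGF list, Cd44, a co-receptor of MET, fell from 28.3 ± 0.613 to 11.2 ± 0.352 FPKM (log2 -1.26). Hpn, whose protease activates HGF, rose from 0.739 ± 0.168 to 1.93 ± 0.576 FPKM (log2 0.74, limma adjusted p = 0.000557), and it reached 1 FPKM in MIM-Astrocytes alone, which carried it into the test. Plau, the urokinase gene, went from 0.520 to 0.329 FPKM (log2 -0.19, limma adjusted p = 0.0387), and lost its call in 5 of 6 fits without a library, where adjusted p ran from 0.0660 to 0.126.

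**Figure D4:**
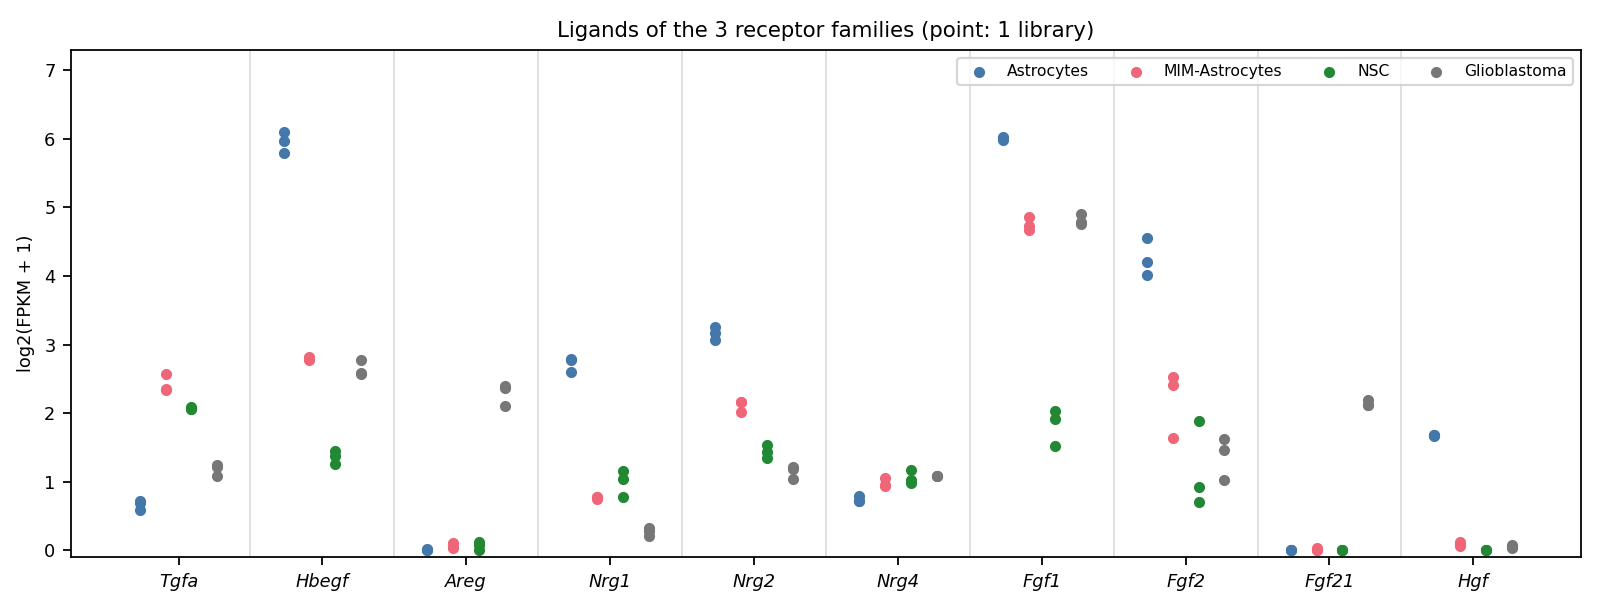
Level of 10 ligand genes as log2(FPKM + 1) (vertical axis) in the 12 libraries, by group, each point 1 library. Hbegf, Nrg1, Nrg2, Fgf1, Fgf2 and Hgf are highest in Astrocytes, Tgfa is highest in MIM-Astrocytes, and Areg and Fgf21 stand at 3.31 FPKM or more in Glioblastoma and at 0.0848 or less elsewhere.

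Genes that act with or after the receptors moved both ways between MIM-Astrocytes and Astrocytes. Of 9 tested heparan sulfate proteoglycans, which hold FGFs at their receptors, 5 rose and 4 fell (34.8% and 26.6% of all genes), with a median log2 difference of 0.51 beside 0.09 over all genes. Sdc3 rose from 2.46 ± 0.415 to 47.5 ± 6.10 FPKM (log2 3.81, limma adjusted p = 4.93e-10) and Gpc5 rose (log2 1.21), while Gpc4 fell from 54.5 ± 7.95 to 12.8 ± 1.5 FPKM (log2 -2.00) and Sdc2 fell (log2 -1.42). Of 5 tested genes for the shedding of ligands, Adam12 rose from 1.71 ± 0.0776 to 19.1 ± 1.75 FPKM (log2 2.89), Adam9 fell (log2 -0.35) and 3 were not called. Of 30 adaptors and relay genes 13 rose and 7 fell (median log2 0.10) beside 34.8% and 26.6% of all tested genes, among them the adaptors Shc4 (log2 2.26) and Shc3 (1.82) upward and the kinase Braf (-1.37) and the transcription factor Stat3 (-1.05) downward. At a common total 7 of these 30 were higher and 12 lower.

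Feedback and turnover regulators, which ERK signalling itself induces in part, moved both ways. Of 23 tested 13 rose, 3 fell and 7 were not called (median log2 0.26), where 34.8% of all tested genes rose and 26.6% fell, and 10 rose and 6 fell at a common total. Spry2, which restrains receptor signalling, rose from 10.5 ± 0.551 to 57.6 ± 1.58 FPKM (log2 2.35, limma adjusted p = 1.08e-09) and stood at 42.4 ± 4.37 in NSC. Spry1 rose from 0.446 ± 0.106 to 5.75 ± 0.618 FPKM (log2 2.22) and stood at 10.0 ± 0.667 in NSC. Rnf41 (log2 -0.43), a ubiquitin ligase for ERBB3, fell. Flrt1, a membrane partner of FGF receptors, stood at 1.48 to 1.97 FPKM in Astrocytes and at 0.417 or less in the other libraries (log2 -1.0), and it entered the test through Astrocytes and had to differ there.

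In Glioblastoma, where Egfr, Fgfr2 and Fgfr3 were lowest, several of these regulators were at their highest level of the 4 groups. These genes were chosen after their values were seen. Dusp6, the ERK phosphatase, stood at 367 ± 3.96 FPKM against 38.1 ± 3.48 in NSC (log2 3.24, limma adjusted p = 1.55e-10), 40.1 ± 2.38 in MIM-Astrocytes and 9.52 ± 0.630 in Astrocytes. Spry1 stood at 125 ± 1.59 FPKM (log2 3.52 against NSC), Spry2 at 162 ± 4.81 (log2 1.92) and Spry4 at 27.0 ± 1.74 (log2 2.43). Shc4, from the list of adaptors and not a feedback regulator, stood at 34.2 ± 0.582 FPKM against 5.50 ± 0.144 in NSC (log2 2.44). The feedback and turnover list as a whole moved both ways against NSC, with 11 of 23 higher, 9 lower and a median of 0.13. Over all genes 44.8% were higher and 25.1% lower, with a median of 0.19. Cblb, a ubiquitin ligase for EGFR, stood at 1.35 to 1.61 FPKM in Glioblastoma libraries against 8.49 to 9.20 in NSC.

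**Figure D5:**
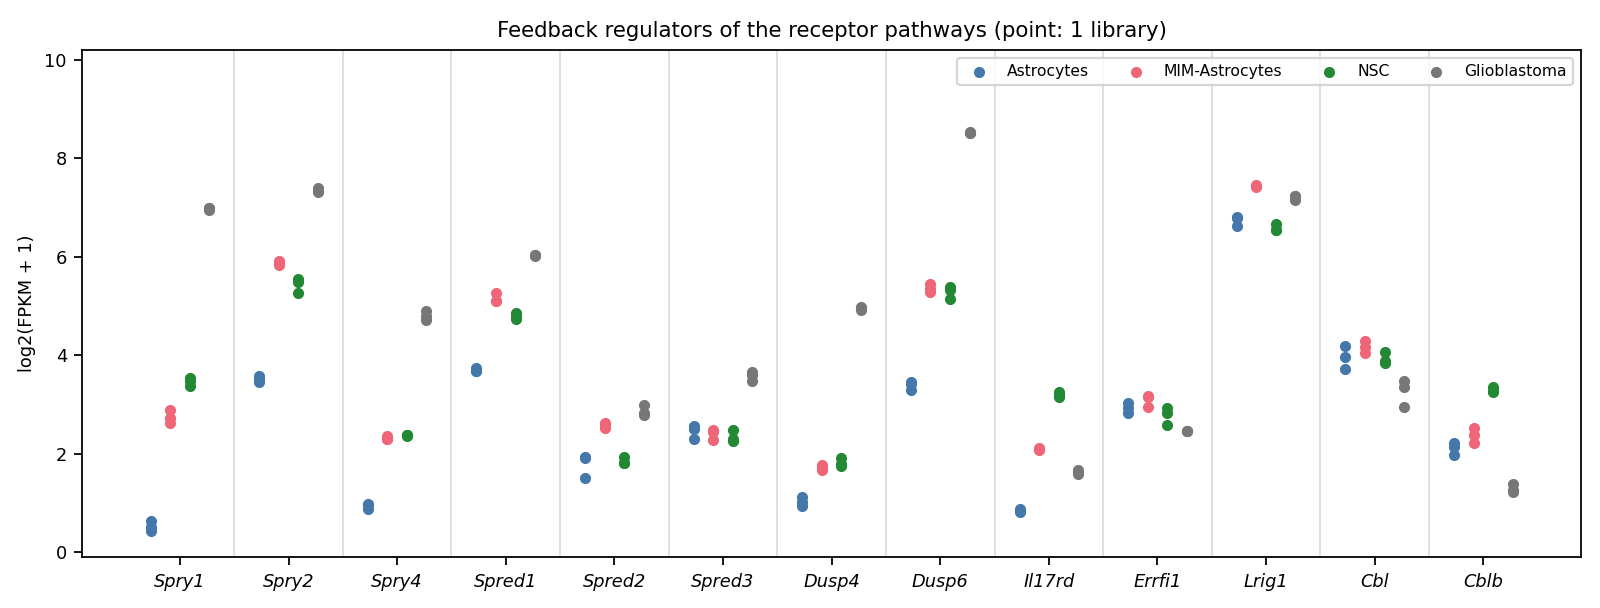
Level of 13 feedback and turnover regulators as log2(FPKM + 1) (vertical axis) in the 12 libraries, by group, each point 1 library. Spry1, Spry2, Spry4, Dusp4 and Dusp6 are highest in Glioblastoma and lowest in Astrocytes, with MIM-Astrocytes and NSC between them, while Errfi1, Cbl and Cblb are lowest in Glioblastoma.

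Among 58 receptor tyrosine kinase genes, ranked within each group by mean FPKM, Egfr stood 11th in Astrocytes, 2nd in MIM-Astrocytes and in NSC, and 11th in Glioblastoma. Fgfr3 stood 6th, 3rd, 3rd and 14th in that order, and Fgfr2 stood 5th, 7th, 11th and 17th. Fgfr1 stood 4th, 5th and 6th and then 2nd in Glioblastoma, where the collagen receptor Ddr2 led at 50.5 FPKM. Of the 5 other kinases with the highest mean, Ntrk2, the BDNF receptor, led in MIM-Astrocytes (305 ± 17.3 FPKM) and NSC (186 ± 3.58) and stood at 13.9 ± 0.173 in Glioblastoma. Ddr1, a collagen receptor, and Axl, a GAS6 receptor, fell from Astrocytes to Glioblastoma like Fgfr2, from 203 ± 5.01 to 27.2 ± 0.426 FPKM and from 150.0 ± 2.32 to 19.3 ± 1.71 FPKM. Tyro3 was highest in NSC (53.8 ± 4.10 FPKM) and Ryk varied from 29.5 ± 2.22 in NSC to 42.9 ± 0.669 in Glioblastoma. Of 27 other tested kinases 10 rose and 9 fell in MIM-Astrocytes against Astrocytes, with Ephb3 (log2 2.55) and Tyro3 (2.05) highest and Kdr (-1.22) and Ddr1 (-1.19) lowest, where all genes gave 34.8% higher and 26.6% lower, and 7 rose and 13 fell at a common total. Kdr, a VEGF receptor and endothelial marker, reached 1 FPKM in Astrocytes alone (1.76 ± 0.113) and so entered the test through the group where it was high.

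The genes most like each receptor were found by Pearson's r of log2(FPKM + 1) over the 12 libraries among 9840 genes, as a description. With 4 groups and 3 libraries each, a high r mostly says that the order and spacing of the 4 group means are alike. For Egfr these were Inhbb (r = 0.997), a subunit of activin B, Mical2 (0.995), which oxidises actin, and Lfng (0.994), which modifies Notch and stood at 23.4, 107, 95.5 and 17.7 FPKM in Astrocytes, MIM-Astrocytes, NSC and Glioblastoma. For Fgfr3 they were Kcnn2 (0.997), a potassium channel, Itgb8 (0.996), an integrin, and Npc1 (0.996), a cholesterol transporter. For Fgfr2 they were Nectin3 (0.997), Camk2a (0.995) and Pla2g16 (0.995), and for Fgfr1 Per3 (0.977), Inf2 (0.975) and Bicdl1 (0.974). For Met they were Myh10 (0.997), Thbs1 (0.996), at 180 FPKM in Astrocytes and 1.87 in MIM-Astrocytes, and Man1c1 (0.996). For Erbb2 they were Boc (0.992), Ptprt (0.990) and Eya1 (0.989), and for Erbb3 Igfbp5 (0.980), Ccbe1 (0.979) and Braf (0.978).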

How the data were processed

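The deposited tables give FPKM per gene for each of 12 libraries, computed by the authors with Cufflinks on GRCm38, per the submitters' processing notes, each with an interval and a status per the file headers. The Cufflinks version, aligner and strandedness are not given in the sources used here, and gene-level values do not separate receptor isoforms. Each table held 53989 lines and 53932 identifiers, and the lines of the 45 repeated identifiers were added. Genes of status OK in all 12 libraries and at least 1 FPKM in 3 were tested (16982). Depth was estimated from the deposited intervals. These reached 3.41% to 12.1% of the Egfr value on each side and 11.9% to 425% of the Met value.

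Values were taken as log2(FPKM + 1) and given to limma (3.58.1, under R 4.3.3) with a mean for each of the 4 groups, a variance prior that follows the mean level and 8 residual degrees of freedom. Tests were two-sided, and each of 6 comparisons was adjusted over all tested genes by Benjamini and Hochberg. The fit was tested on simulated data. Other steps used Python 3.11.15 with pandas 2.3.3, NumPy 2.4.6 and, for figures, matplotlib 3.10.9. Promoters came from RefSeq, where Egfr, Erbb2, Fgfr2, Fgfr3 and Met matched.

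The receptor genes and the gene lists were chosen with earlier results of these data known. Named were the 7 receptors, every tested further receptor and ligand, up to 2 called genes each way of the other pathway lists in MIM-Astrocytes against Astrocytes, the 5 other receptor tyrosine kinases with the highest mean, and the 3 genes most like each receptor among those with a mean of at least 5 FPKM in a group. Each result was recomputed with array weights, with a replicate block, on the 6 libraries compared only, and without each library in turn. The pseudocount (0.1 or 0.5), the filter (none, or a mean of 5 FPKM) and the scaling (quantile, median-of-ratios, a common total, or one that leaves out small RNAs and mitochondrial genes) were also changed. Spry4, Dusp6, Cblb and the Glioblastoma values of the feedback genes and of Shc4 were named after their values were seen. No library batch is given in the labels.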

Additional observations from a re-analysis of the deposited data

How the results depend on the processing

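Of the receptors' log2 differences, 361 of the values under other settings kept direction and side of the threshold, 4 lost a call, 16 gained it and 3 changed sign. On leaving out a library, 202 kept both, 8 lost a call, 4 gained it and 2 changed sign. The sign changes were Erbb2 in NSC against Astrocytes, at -0.27 with a common total, and at -0.0430 to 0.125 on leaving out a library, and Fgfr3 in MIM-Astrocytes against NSC, at 0.0390 with a common total, 0.00971 with array weights and -0.0666 to 0.0482 on leaving out a library. The cause was not tested. In each of these the change in the reported fit was not called. Erbb2 in MIM-Astrocytes against Astrocytes gained its call under median-of-ratios scaling (-0.32) and a common total (-0.54).

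Of 16982 genes, 10423, 12087, 13294, 9487, 11876 and 11847 were called in MIM-Astrocytes, NSC and Glioblastoma against Astrocytes, in MIM-Astrocytes and Glioblastoma against NSC, and in Glioblastoma against MIM-Astrocytes. With a mean of at least 5 FPKM, where fewer genes were tested, 6807, 7745 and 8446 were called against Astrocytes, 7681 in Glioblastoma against NSC and 7665 against MIM-Astrocytes. That filter drops Erbb2 and Met, and receptors called then numbered 2 in place of 4 in MIM-Astrocytes against NSC and 3 in place of 5 in Glioblastoma against NSC. On leaving out a library, the receptors called in MIM-Astrocytes against NSC ranged from 2 to 4.

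Erbb3, tested without a filter on low values, was lower in MIM-Astrocytes than in Astrocytes (-0.20, limma adjusted p = 5.72e-06). Of 64 differences given for 34 genes of the pathway lists, repeated under the same settings by a choice made after seeing the data, no sign changed and 19 of their values lost a call.

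Replicate numbers are not said to pair libraries. Deviations from the group means correlated at -0.058 to 0.097 between libraries with the same number and at -0.121 to 0.0736 between the others. With a replicate block, Erbb2 in MIM-Astrocytes against Astrocytes was called (limma adjusted p = 0.0318), as was Egfr in MIM-Astrocytes against NSC (0.0370), while Met in MIM-Astrocytes against NSC was not (0.0649). The block left 5, 5, 6, 4, 5 and 6 receptors called in the order above and changed no other receptor's call. At this depth Erbb3 and, outside Astrocytes, Met lie near the limit of what the libraries can show.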
